A study of Mus musculus with 8 samples.

Results

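The clustered protocadherin genes were examined in the liver peak lists of the histone mark H3K27-me3. Members were the protein-coding genes on chromosome 18 whose symbol starts with Pcdha, Pcdhb, Pcdhga, Pcdhgb or Pcdhgc followed by a number or the letter c, in the GENCODE annotation of mm10. There were 57 members among 21864 protein-coding genes, with 14 in the alpha cluster, 22 in the beta cluster and 21 in the gamma cluster. To learn how downregulation of JMJD3 (Kdm6b), a demethylase of H3K27-me3, changes the mark in liver, the study treated male JMJD3-floxed C57BL/6 mice at 8 weeks of age with 1 of 2 viruses. AAV-TBG-Cre carries the Cre recombinase under the hepatocyte-directed TBG promoter, and AAV-GFP was the control. Both groups carried the floxed allele, were kept for 12 weeks after injection and were fasted for 16 h. Whole liver was used, so cells that are not hepatocytes contributed chromatin in both groups, and fewer cells of a type cannot be told apart from less mark per cell. For each group of 2 mice the authors deposited 1 peak list made from both H3K27-me3 libraries, and the input libraries have no list. There is therefore no value per mouse, and every difference between the AAV-Cre and AAV-GFP lists below is a description of 2 lists without a replicate check or a test.

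Protocadherins are cell adhesion proteins of the cadherin superfamily. The clustered ones are best known from neurons, where each cell chooses a few of them and so gains an identity at its surface. In the alpha and gamma clusters every member has its own large first exon, called the variable exon, with a promoter in front of it. The variable exon encodes the extracellular cadherin repeats, the membrane span and a part of the cytoplasmic tail. It is spliced to a short set of constant exons at the end of the cluster that all members share. Members of the beta cluster have no constant exons and are encoded by a single large exon. Pcdhac1, Pcdhac2, Pcdhgc3, Pcdhgc4 and Pcdhgc5 form the C type, which differs in sequence from the other members and lies next to the constant exons. H3K27-me3 is laid down by the Polycomb complex PRC2 and is associated with silent genes.

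In mm10 the alpha cluster spanned chr18:36930184-37187661, the beta cluster chr18:37264938-37524479 and the gamma cluster chr18:37661793-37841873. All members lie on the plus strand. The variable exon of a member was taken as its exon with the largest coding part, and a constant exon as a coding exon shared by at least 3 members. This gave 3 constant exons in the alpha cluster, 3 in the gamma cluster and none in the beta cluster. GENCODE M21 gives the symbol Pcdha11 to 2 gene IDs, and the first of them, whose exon starts at 37005203, has the name Pcdha10 in RefSeq. They are called the first and the second Pcdha11 here. Pcdhgb8 is annotated as a polymorphic pseudogene and is no member.

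The AAV-Cre list held 59267 regions that covered 2.71% of the genome, and the AAV-GFP list held 34586 that covered 0.548%. The shortest region had 300 bp in the AAV-Cre list and 120 bp in the AAV-GFP list, and the read depth behind either list is not in the files. The lists thus differ in what their calls could hold, and regions are compared within a list wherever possible. Regions carry a fold enrichment over input, a p-value and a q-value from the authors' peak caller. The peak lists do not measure whether Kdm6b was deleted. Of 20 genes that define hepatocytes, 0 had a region within 1 kb of a start site in either list. Of 14 marker genes of other liver cells, 9 (64.3%) did in the AAV-Cre list and 7 (50%) in the AAV-GFP list, against 23.9% and 16.6% of all protein-coding genes.

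The gamma cluster carried most of the mark. Regions covered 61.4 kb of its 180.1 kb in the AAV-Cre list (34.1%) and 24.9 kb in the AAV-GFP list (13.8%). They covered 7.22 kb of the 257 kb of the alpha cluster in the AAV-Cre list (2.8%) and 2.17 kb in the AAV-GFP list (0.843%). The beta cluster had the least, with 3.29 kb of 259.5 kb (1.27%) in the AAV-Cre list and 0.7 kb (0.27%) in the AAV-GFP list. The level of chromosome 18 as a whole was 1.92% and 0.375%, so the gamma cluster lay far above it in both lists and the beta cluster below it in both. Over the 3 clusters together 71.9 kb of 697 kb were covered in the AAV-Cre list (10.3%) and 27.8 kb in the AAV-GFP list (3.99%).

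**Figure D1:**
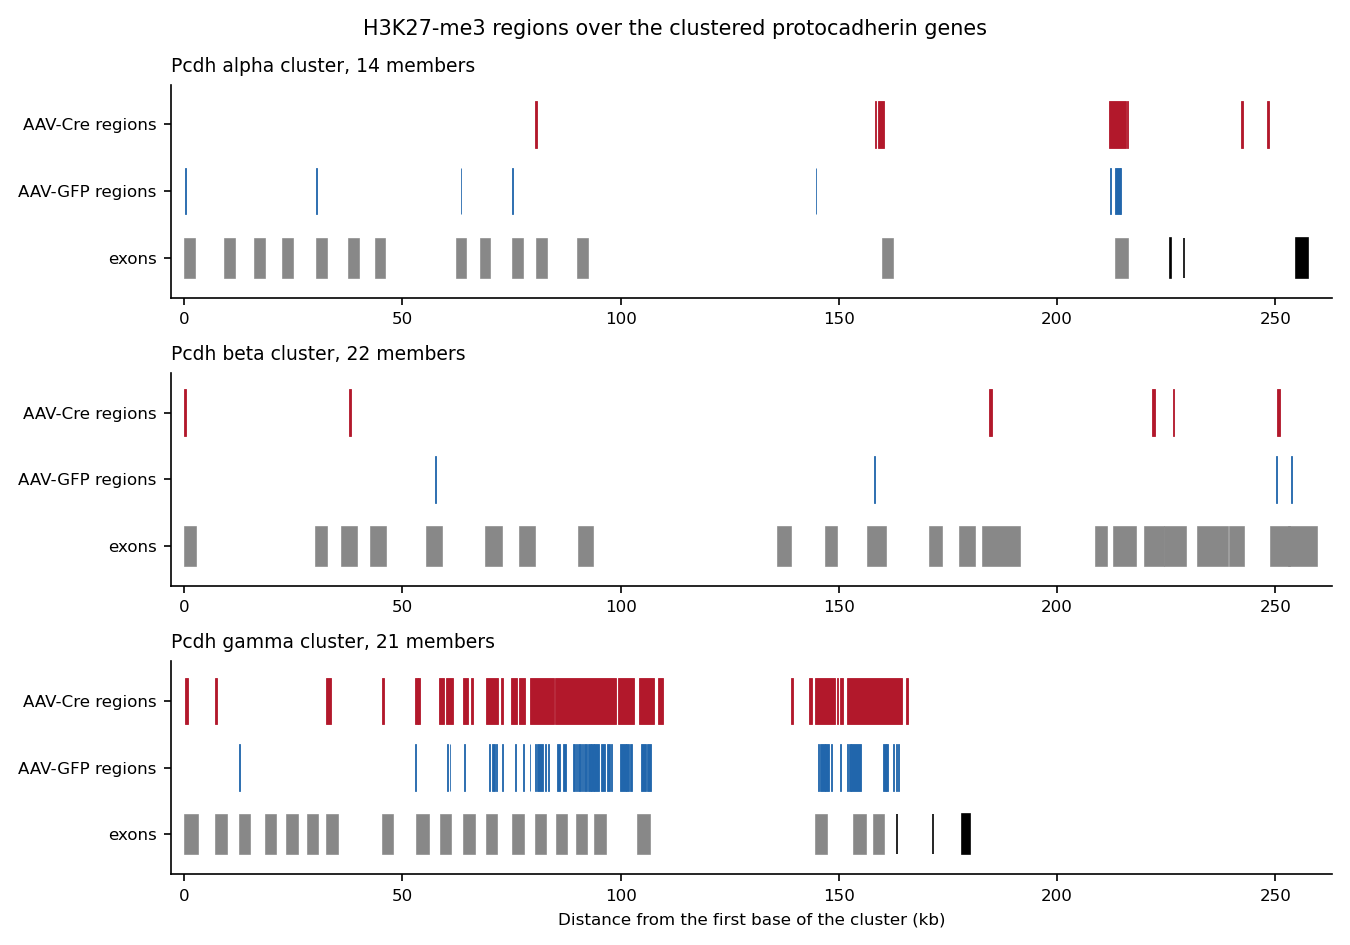
Position of the H3K27-me3 regions over the 3 protocadherin clusters, with the distance from the first base of each cluster in kb on the x axis. Red blocks are AAV-Cre regions, blue blocks AAV-GFP regions, grey blocks variable exons and black blocks constant exons. The 26 AAV-Cre and 47 AAV-GFP regions of the gamma cluster crowd over its later variable exons, while the alpha and beta clusters hold 7 and 6 AAV-Cre regions.

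Covered bases were more frequent in the variable exons than in the rest of the cluster in all 3 clusters and both lists. In the gamma cluster 58.7% of the variable exon bases were covered in the AAV-Cre list, against 23.3% of the bases that are neither variable nor constant exon. The same shares were 27.6% and 7.7% in the AAV-GFP list. In the alpha cluster the variable exons were covered over 10.1% and the rest over 1.67% in the AAV-Cre list. The AAV-GFP list covered 4.73% and 0.228% of them. In the beta cluster the variable exons were covered over 3.58% in the AAV-Cre list and 0.76% in the AAV-GFP list, and 0 bases of the remaining 167 kb were covered in either list. No region had its summit, the point of highest signal, in a constant exon. Of the 39 AAV-Cre summits, 27 lay in a variable exon and 12 between exons, and of the 59 AAV-GFP summits 36 lay in a variable exon and 23 between exons.

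**Figure D2:**
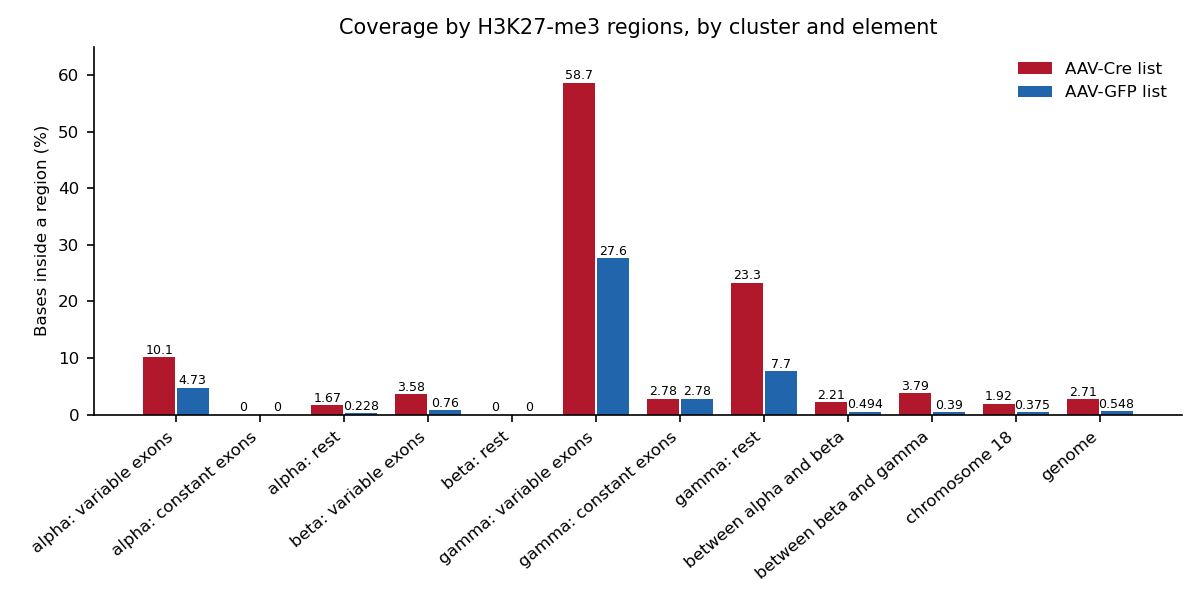
Percent of bases inside an H3K27-me3 region (y axis) for each element of the 3 clusters, the stretches between the clusters, chromosome 18 and the genome, with red bars for the AAV-Cre list and blue bars for the AAV-GFP list. Each bar is 1 list without an error. The variable exons of the gamma cluster reach 58.7% and 27.6%, against 2.71% and 0.548% for the genome.

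Among the 57 members, 26 (45.6%) had an AAV-Cre region over the variable exon, where 12.0% of all protein-coding genes had one over their largest coding exon. For the AAV-GFP list it was 23 members (40.4%) against 6.53% of all genes. Members have long exons, with a median of 2614 bp against 557 bp for all genes, but among the 4075 genes whose largest coding exon has at least 2000 bp the shares were 13.7% and 8.71%. With all deposited regions kept, the share was highest in the gamma cluster and above that of all genes in each cluster. In the AAV-Cre list 17 of 21 gamma members (81.0%), 3 of 14 alpha members (21.4%) and 6 of 22 beta members (27.3%) had a region over the variable exon. The beta count fell to 2 when only regions with a q-value of 0.01 or lower were kept. The AAV-GFP counts were 14 of 21 (66.7%), 5 of 14 (35.7%) and 4 of 22 (18.2%), and fell to 12, 1 and 2 at a q-value of 0.05. The share of all genes at these q-value thresholds was not computed, so the comparison with all genes holds for the unfiltered regions only. When only the coding part of the exon was counted, 26 members had an AAV-Cre region there and 22 an AAV-GFP region, against 11.7% and 6.18% of all genes. At least 0.5 of the variable exon was covered in 13 members in the AAV-Cre list, against 9.88% of all genes. Of these members 12 were gamma members and 1 was Pcdhac2. Only 8 members, all in the gamma cluster, reached this in the AAV-GFP list, against 4.17% of all genes.

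Measured from the start sites the picture was alike for the gamma cluster and different for the beta cluster. The AAV-Cre list had 21 members (36.8%) with a region at most 1 kb from a start site, against 23.9% of all genes. These were 17 gamma, 3 alpha members and 1 beta member. The AAV-GFP list had 17 such members (29.8%), against 16.6% of all genes, with 12 gamma, 4 alpha members and 1 beta member. The share of alpha members was close to that of all genes in the AAV-Cre list, and the share of beta members, 4.55% in each list, was below it. The start site itself was inside an AAV-Cre region in 18 members (31.6%, against 19.6% of all genes) and inside an AAV-GFP region in 7 (12.3%, against 11.0%). A window of 5 kb gave 30 and 24 members, against 30.1% and 20.6% of all genes. With the study's window of 15 kb, 42 members had an AAV-Cre region and 41 an AAV-GFP region, against 41.6% and 28.0% of all genes. In genes packed as closely as these, that window reaches the exons of neighbours.

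**Figure D3:**
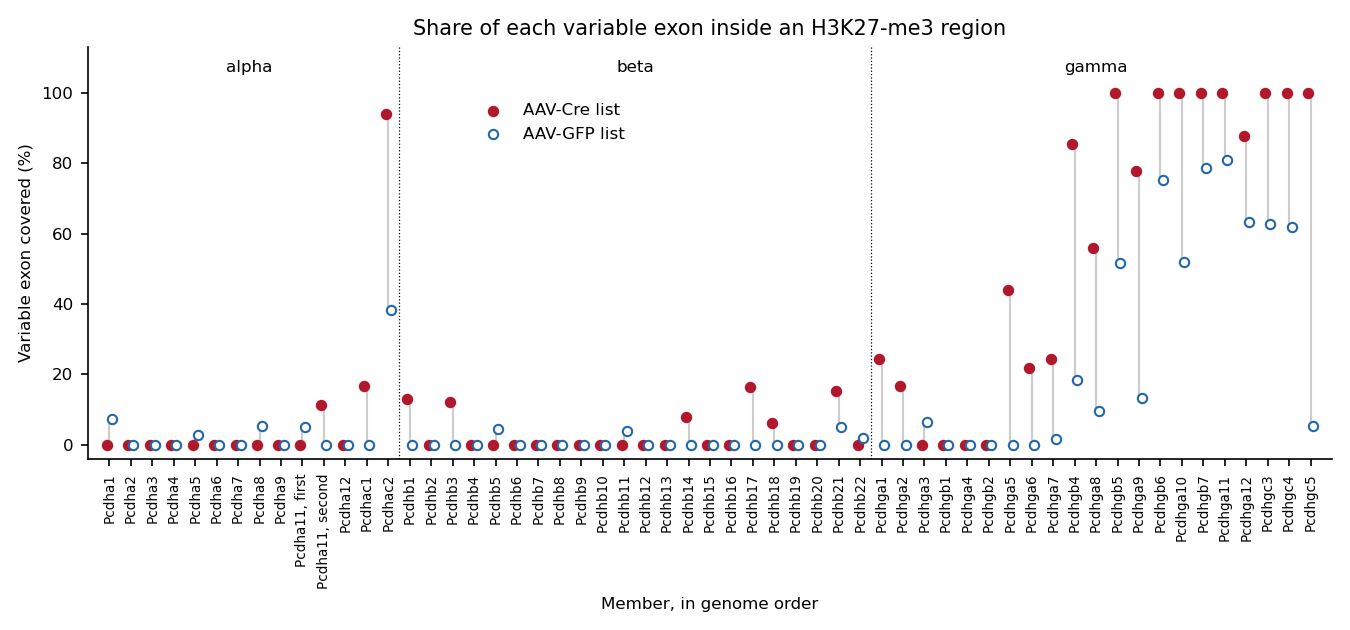
Share of each variable exon covered by H3K27-me3 regions (y axis, percent) for the 57 members in genome order (x axis), with filled red points for the AAV-Cre list, open blue points for the AAV-GFP list and dotted lines between the clusters. The 12 members from Pcdhgb4 to Pcdhgc5 sit between 55.8% and 100% in the AAV-Cre list, and Pcdhac2 is the only alpha or beta member above 20% in either list.

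Within the gamma cluster coverage changed with position. The 9 members at its start, from Pcdhga1 to Pcdhga7, had a median of 16.8% of the variable exon covered in the AAV-Cre list, with a range of 0 to 44.0%. AAV-GFP regions touched 2 of these 9 members, Pcdhga3 at 6.46% and Pcdhga7 at 1.74%. The 12 members from Pcdhgb4 to Pcdhgc5 had a median of 100% in the AAV-Cre list, with a range of 55.8% to 100%. All 12 were touched by AAV-GFP regions, with a median of 56.9% and a range of 5.34% to 81.0%. The AAV-Cre values stepped up between Pcdhga7 and Pcdhgb4, from 24.4% to 85.4%. The 2 runs of members were divided at this step, so their medians only describe it. The AAV-GFP values rose later and less evenly, with Pcdhgb4, Pcdhga8 and Pcdhga9 at 18.4%, 9.65% and 13.3%, and stayed above 50% from Pcdhgb6 to Pcdhgc4. In bins of 20 kb from the start of the cluster, the AAV-Cre list covered 6.19%, 5.75% and 13.5% of the first 3 bins, and 48.4% and 95.7% of the next 2. The AAV-GFP list covered 0.84%, 0% and 0.995% of the first 3 bins, and 14.1% and 51.7% of the next 2. Both lists fell after that, to 37.8% and 21.3% between 100 and 120 kb and to 2.0% and 0% between 120 and 140 kb, a stretch without a start codon of a member. They rose again to 73.4% and 28.5% between 140 and 160 kb, where the 3 C-type members lie.

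The members at the start of the gamma cluster encode proteins of the A and B types. Pcdhga1 was covered over 24.4% in the AAV-Cre list and 0% in the AAV-GFP list, and Pcdhga2 over 16.8% and 0%. Pcdhga5 was covered over 44.0% and Pcdhga6 over 21.8% in the AAV-Cre list, both with 0% in the AAV-GFP list. Each of these 4 members had a single AAV-Cre region, from 446 bp at Pcdhga2 to 1149 bp at Pcdhga5, where the median of that list was 753 bp. The q-values ran from 0.023 at Pcdhga1 to 1.48e-06 at Pcdhga5. Pcdhgb1, Pcdhga4 and Pcdhgb2, which lie side by side between Pcdhga3 and Pcdhga5, had no region over the variable exon in either list. Their start sites were 10849, 9141 and 4523 bp from the nearest AAV-Cre region. Pcdhga3 was the 1 gamma member with a region in the AAV-GFP list alone, of 168 bp and with a q-value of 0.00465.

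From Pcdhgb4 on the regions grew and joined. Pcdhgb4 was covered over 85.4% in the AAV-Cre list and 18.4% in the AAV-GFP list, Pcdhga8 over 55.8% and 9.65%, and Pcdhga9 over 77.8% and 13.3%. Pcdhgb5, which lies between Pcdhga8 and Pcdhga9, was covered over 100% and 51.7%. Pcdhgb6 was covered over 100% and 75.2%, Pcdhga10 over 100% and 51.8%, Pcdhgb7 over 100% and 78.5% and Pcdhga11 over 100% and 81.0%. The order of the 2 lists was the same at each of these 8 members, with the AAV-Cre share above the AAV-GFP share. Pcdhga12, the last of the A type, was covered over 87.7% and 63.4%, and its whole coding part (100%) was inside an AAV-Cre region.

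The widest AAV-Cre region of the clusters had 13863 bp, at chr18:37746855-37760717, and spanned the variable exons of Pcdhga10, Pcdhgb7 and Pcdhga11 without a break. Its fold over input was 9.18 and its q-value 2.66e-34, and by width it was number 125 of the 59267 AAV-Cre regions. The AAV-GFP list had 13 separate regions inside it, which covered 58.1% of it. When AAV-Cre regions up to 1 kb apart were joined, this stretch reached 23.8 kb, from 37741080 to 37764880, with 3 regions over 4 variable exons from Pcdhgb6 to Pcdhga11 and 96.4% of its bases covered. With gaps of up to 5 kb joined, 15 AAV-Cre regions made a stretch of 56.6 kb over 10 variable exons from Pcdhga7 to Pcdhga12. Joined in this way, 29 AAV-GFP regions made a stretch of 37.0 kb. Regions covered 68.0% of the AAV-Cre stretch of 56.6 kb and 45.1% of the AAV-GFP stretch. The AAV-Cre region at chr18:37761132-37764880, of 3749 bp and with a fold of 7.65, lay over the start of the pseudogene Pcdhgb8 and held 3 AAV-GFP regions.

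The C-type members of the gamma cluster held the AAV-Cre regions with the highest folds of the family, and the one over Pcdhgc4 and Pcdhgc5 also had the lowest p-value. Pcdhgc4 and Pcdhgc5 shared 1 AAV-Cre region of 12594 bp, at chr18:37813609-37826202, with a fold over input of 12.48, a −log10 p of 60.3 and a q-value of 1.01e-56. It ranked number 364 of 59267 by p-value and number 160 by width. Pcdhgc3 had its own AAV-Cre region of 4581 bp, at chr18:37806328-37810908, with a fold of 9.74 and a q-value of 2.3e-38. All 3 variable exons were covered over 100% in the AAV-Cre list. In the AAV-GFP list Pcdhgc3 was covered over 62.8% and Pcdhgc4 over 62.0%, but Pcdhgc5 over only 5.34%. The widest AAV-GFP region of the clusters, which was also the one with the highest −log10 p, lay on Pcdhgc4, at chr18:37814608-37816880. It had 2273 bp, a fold of 4.21, a −log10 p of 14.9 and a q-value of 1.03e-11. Among the 34586 AAV-GFP regions it ranked number 736 by width and number 1320 by p-value. The large AAV-Cre region over Pcdhgc4 and Pcdhgc5 held 8 AAV-GFP regions, which covered 35.7% of it.

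The constant exons, which encode the tail common to all members of a cluster, were nearly free of regions. In the alpha cluster 0 of 2864 constant bases were covered in either list, and the nearest AAV-Cre region was 6213 bp from the closest of the 3 exons. In the gamma cluster the first constant exon, of 59 bp, was inside a region in both lists. The second and the third gamma constant exons, of 89 and 1971 bp, had 0 covered bases in both. The nearest AAV-Cre region was 5632 bp away from the second and 12270 bp away from the third. The mark of the gamma C type thus ran past Pcdhgc5 over the first constant exon and ended before the second. The last constant exons, of 2716 bp in the alpha and 1971 bp in the gamma cluster, are of a size with the variable exons, and the other constant exons are much shorter.

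Only 1 member of the alpha cluster was covered over most of its variable exon. Pcdhac2, the last C-type member before the constant exons, was covered over 93.9% in the AAV-Cre list and 38.3% in the AAV-GFP list. Its main AAV-Cre region had 4022 bp, at chr18:37141999-37146020, with a fold of 8.93 and a q-value of 1.45e-39, and ranked number 1120 by p-value. The AAV-GFP list had a region of 1072 bp there, at chr18:37143426-37144497, with a fold of 3.47 and a q-value of 3.96e-08. Pcdhac1, the other alpha C-type member, was covered over 16.8% in the AAV-Cre list, by a region of 1205 bp with a fold of 4.34 and a q-value of 1.73e-08 over the start of the exon. It had 0% in the AAV-GFP list. So all 5 C-type members had an AAV-Cre region over the variable exon, and 4 of the 5 had an AAV-GFP region there.

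Of the 12 alpha members with numbered names, only the second Pcdha11 had an AAV-Cre region over its variable exon, of 412 bp, which covered 11.2% with a q-value of 0.023. The AAV-GFP list had regions over 4 of the 12. They covered 7.27% of Pcdha1, 2.94% of Pcdha5, 5.33% of Pcdha8 and 5.04% of the first Pcdha11. These 4 regions had 126 to 181 bp and q-values of 0.0884, 1, 0.182 and 0.182, so none of them passed a q-value of 0.05. When only regions with a q-value of 0.05 or lower were kept, Pcdhac2 was the single alpha member with an AAV-GFP region over the variable exon. With the 15 kb window the same threshold took the alpha members with an AAV-GFP region from 14 of 14 to 1 of 14, and left the AAV-Cre count at 6.

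In the beta cluster regions were few, with median widths below those of the genome. The medians were 580 bp in the AAV-Cre list and 166 bp in the AAV-GFP list, against 753 and 231 bp. The median fold was 2.49 against 2.90 for the genome in the AAV-Cre list, and 2.57 against 2.61 in the AAV-GFP list. The AAV-Cre regions lay over Pcdhb1 (13.1% of the variable exon), Pcdhb3 (12.3%), Pcdhb14 (7.98%), Pcdhb17 (16.3%), Pcdhb18 (6.23%) and Pcdhb21 (15.2%). They had 314 to 761 bp and folds of 2.28 to 3.21. The lowest q-value, 0.000291, was that of Pcdhb17 and Pcdhb21, and the region at Pcdhb3 did not pass 0.05 (q-value 0.0573). The AAV-GFP regions lay over Pcdhb5 (4.55%), Pcdhb11 (3.89%), Pcdhb21 (5.02%) and Pcdhb22 (1.98%), had 131 to 236 bp, and passed a q-value of 0.05 at Pcdhb5 (0.00238) and Pcdhb22 (0.00654). Pcdhb21 was the only beta member with a region in both lists. Many beta exons are annotated with long untranslated ends. Of the coding part alone, 31.7% was covered for Pcdhb17, 30.9% for Pcdhb21, 29.1% for Pcdhb14 and 11.4% for Pcdhb1 in the AAV-Cre list. No beta member reached 0.5 of the exon in either list.

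The place of the regions within the genes differed between the clusters. The start codon was inside an AAV-Cre region in 16 of 21 gamma members, 3 of 14 alpha members and 1 of 22 beta members. The share of all genes at these positions was not computed, so the counts compare the clusters with each other only. A region that spans several exons, such as that of 13863 bp, counts for each member it reaches. At 500 bp before the start codon it was 5 gamma members, and at 100 bp after it 17. The count then fell to 9 at 1000 bp after the start codon, rose to 12 at 2000 bp, near the end of the coding part of the exon, and was 8 at 3000 bp. In the beta cluster the order was reversed, with 5 members inside an AAV-Cre region at 2000 bp after the start codon and 1 at the start codon itself. The beta member covered at its start codon was Pcdhb1. In the AAV-GFP list 6 gamma members, 3 alpha members and 0 beta members were covered at the start codon, and the gamma count was highest 600 bp after it, at 9.

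**Figure D4:**
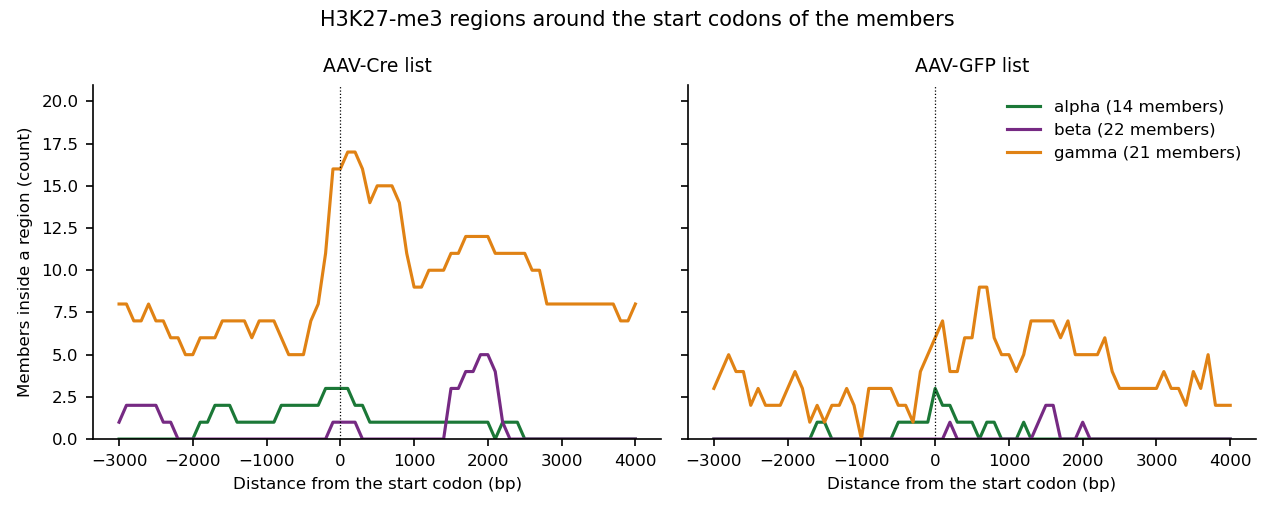
Number of members inside an H3K27-me3 region (y axis) by distance from the start codon in bp (x axis, negative values upstream), with the AAV-Cre list on the left and the AAV-GFP list on the right. Lines are the alpha, beta and gamma clusters. In the AAV-Cre list the gamma line reaches 17 of 21 members just after the start codon, and the beta line is highest near 2000 bp, at 5 of 22.

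The lists were compared member by member. The variable exon was overlapped in both lists in 15 members, only in the AAV-Cre list in 11, only in the AAV-GFP list in 8 and in neither in 23. Among all genes 5.72% were overlapped only in the AAV-Cre list and 0.256% only in the AAV-GFP list, against 19.3% and 14.0% of the members. Both shares were thus higher in the members, whose exons are longer than those of most genes. They were not computed for genes with exons of at least 2000 bp. The 8 members found in the AAV-GFP list alone had regions of 126 to 181 bp, all shorter than the shortest AAV-Cre region of the genome, and 3 of the 8 passed a q-value of 0.05. The 11 found in the AAV-Cre list alone had regions of 314 to 1205 bp, and 10 of the 11 passed. In the gamma cluster 13 members had a region in both lists, 4 in the AAV-Cre list alone, 1 in the AAV-GFP list alone and 3 in neither. In the alpha cluster these counts were 1, 2, 4 and 7, and in the beta cluster 1, 5, 3 and 13. For start sites within 1 kb the counts over the 57 members were 12 in both, 9 in the AAV-Cre list alone, 5 in the AAV-GFP list alone and 31 in neither, where 7.62% and 0.288% of all genes were found in the AAV-Cre and the AAV-GFP list alone.

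Base by base, the AAV-GFP regions of the gamma cluster were nested in the AAV-Cre regions. Of the gamma bases covered in the AAV-GFP list 98.4% were also covered in the AAV-Cre list, against 93.3% over the genome. This share was 66.0% in the alpha cluster and 20.3% in the beta cluster. The reverse share, of AAV-Cre bases also covered in the AAV-GFP list, was 39.9% in the gamma cluster and 18.9% over the genome. The AAV-Cre list covered 2.46 times as many gamma bases as the AAV-GFP list, 3.33 times as many in the alpha and 4.7 times as many in the beta cluster. All 3 ratios were below those of chromosome 18, 5.11, and of the genome, 4.93. The gamma cluster was thus the part of the family in which the lists were most alike, and its larger covered length in the AAV-Cre list was smaller in relative terms than that of the genome. Depth, input and calling differ between the lists along with the virus, and their parts in these ratios cannot be told apart.

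Counts of regions went the other way from covered length in the clusters together and in the alpha and gamma clusters, but not in the beta cluster. The AAV-Cre list had 39 regions over the clusters with a median width of 717 bp, and the AAV-GFP list 59 with a median of 304 bp. In the gamma cluster it was 26 regions with a median of 1040 bp against 47 with a median of 379 bp. The alpha cluster had 7 AAV-Cre and 8 AAV-GFP regions, and the beta cluster 6 and 4. In the genome the AAV-Cre list had more regions than the AAV-GFP list, 59267 against 34586, and the medians were 753 and 231 bp. A q-value of 0.05 was passed by 35 of the 39 AAV-Cre regions (89.7%, genome 88.6%) and by 37 of the 59 AAV-GFP regions (62.7%, genome 46.8%). In the AAV-GFP list 34 of 47 gamma regions passed, 1 of 8 alpha and 2 of 4 beta regions.

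Sequence properties of the variable exons were set beside the coverage, since reads from near-identical copies cannot be placed. Of the 50-base words of each variable exon the share that also occurs elsewhere in the genome had a median of 14.8% in the alpha, 3.65% in the beta and 0.601% in the gamma cluster. With words of 100 bases the medians were lower, at 5.21%, 0.0829% and 0%. The shares below are of 50-base words. At least 10% of the words were repeated in 18 members. The alpha members among them were the 12 numbered ones, of which 1 had an AAV-Cre region. In the gamma cluster they were Pcdhgb1 and Pcdhgb2, both without a region, and Pcdhgb4, Pcdhgb5 and Pcdhgb6, of which each had at least 85.4% of the exon covered in the AAV-Cre list. The 5 C-type members had 0% repeated words. Pcdhga4 had no region in either list at 0.86%, and Pcdhga3 had no AAV-Cre region at 1.02%. Over all members the median share of repeated words was 0.459% in the 26 with an AAV-Cre region over the variable exon and 8.75% in the 31 without. The same medians in the AAV-GFP list were 3.83% in the 23 with a region and 4.59% in the 34 without, and 7 of the 18 members with at least 10% repeated words had an AAV-GFP region, 4 of them alpha members. The part of this property in the coverage of the members was not tested.

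CpG content, which is high in many sequences that PRC2 binds, was set beside the coverage too. The observed over expected number of CpG in the variable exon had a median of 0.665 in the alpha, 0.386 in the beta and 0.533 in the gamma cluster. Of the 12 alpha members with a ratio of at least 0.6, 1 had an AAV-Cre region over the variable exon, and of the 9 gamma members with such a ratio 8 did, all with at least 0.5 of the exon covered. In the AAV-GFP list it was 4 of the 12 alpha and 8 of the 9 gamma members. These 12 alpha members are the same 12 that had at least 10% repeated words, so the 2 properties cannot be told apart there. The part of CpG content in the coverage was not tested. Pcdhgc5 was covered over 100% in the AAV-Cre list with a ratio of 0.345. The 250 bases before the start site held the letters CGCT, which form the core of the conserved promoter element of these genes, on either strand in 55 of the 57 members (96.5%). The exceptions were Pcdhb22 and Pcdhga12. In 32851 RefSeq promoters of the same length, none of them from chromosome 18, the share was 55.7%. Letters this short and this frequent do not show that a member carries the element. Since nearly all members hold them, they do not separate members with a region from those without.

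**Figure D5:**
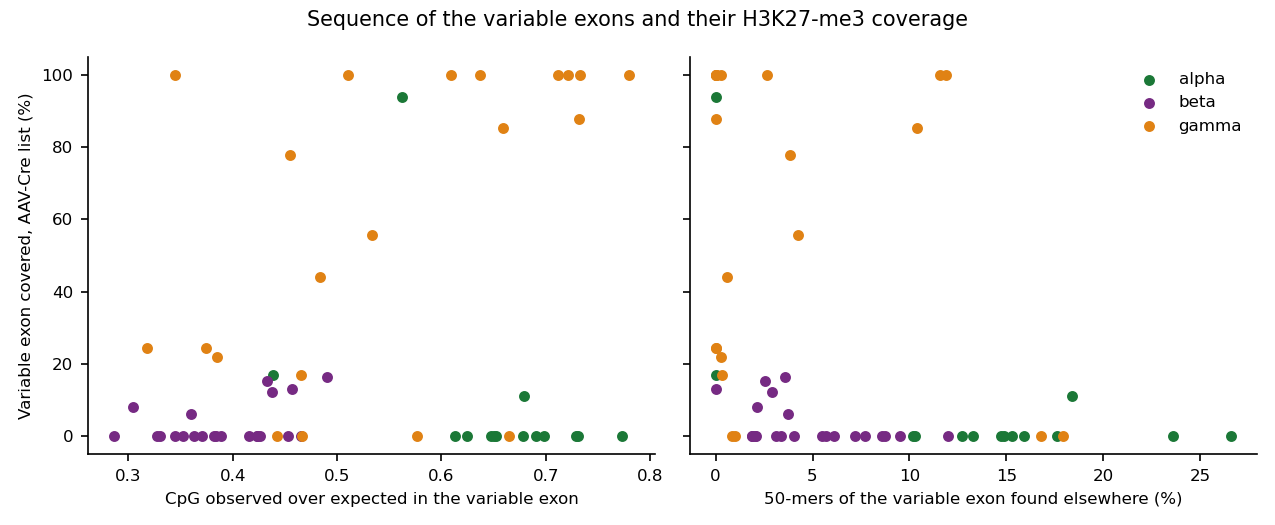
Percent of the variable exon covered in the AAV-Cre list (y axis) against its observed over expected CpG ratio (left) and against the percent of its 50-base words found elsewhere in the genome (right), 1 point per member, coloured by cluster. Of the 12 alpha members with CpG ratios of at least 0.6, 11 lie at 0, while 8 of the 9 gamma members with such ratios lie above 50%. The same 12 alpha members have at least 10% of their 50-base words found elsewhere.

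The mark at the clusters was bounded. In the 100 kb before the alpha cluster and the 100 kb after the gamma cluster, 0 bases were covered in either list. Between the alpha and beta clusters 2.21% was covered in the AAV-Cre list and 0.494% in the AAV-GFP list. A region found in both lists lay 28954 bp after the alpha cluster, with 1623 bp and a q-value of 5.47e-05 in the AAV-Cre list. Between the beta and gamma clusters 3.79% and 0.39% were covered, and the regions lay within the last 20 kb before Pcdhga1. The bodies of 4 neighbouring genes held 0 covered bases in both lists. These were Slc25a2, a mitochondrial carrier, Taf7, a subunit of the general transcription factor TFIID, Diaph1, a formin, and Hdac3, a histone deacetylase. The start site of Taf7 was 1070 bp from the nearest AAV-Cre region, and that of Hdac3 was 18090 bp away. The other protein-coding models there, Gm42416, Gm37013 and Gm37388, run through from the alpha into the gamma cluster, so that their bodies hold the regions of the members between, with 78810 covered bases each in the AAV-Cre list.

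Antisense genes annotated inside the clusters were counted in the same way. In the gamma cluster 3 of 4 antisense genes had an AAV-Cre region and 2 an AAV-GFP region, in the alpha cluster 2 of 5 and 0, and in the beta cluster 0 of 1 in both lists. The share over all antisense genes of the genome was not computed. Some of these genes overlap variable exons of members, so their counts partly repeat those of the members. Gm37118, which overlaps the start of Pcdhga1, was covered over 99.1% in the AAV-Cre list and 0% in the AAV-GFP list. BC037039, which overlaps the start of the Pcdhgc3 variable exon, was covered over 72.3% and 30.3%. Gm26672, a processed transcript on the minus strand across Pcdhga10 to Pcdhga12, was covered over 91.8% and 55.0%. Gm38097, between the second and the third alpha constant exons, was covered over 52.6% in the AAV-Cre list and 0% in the AAV-GFP list. ChIP-seq regions carry no strand, so a sense and an antisense gene at one place cannot be told apart.

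Protocadherins outside the clusters were set beside the members. Of 12 such genes, 9 (75%) had a region within 1 kb of a start site in each list, and 7 (58.3%) had one over the largest coding exon in each. Among all genes it was 23.9% in the AAV-Cre and 16.6% in the AAV-GFP list for start sites, and 12.0% and 6.53% for the exon. Pcdh7 was covered over 100% of this exon in the AAV-Cre list and 69.8% in the AAV-GFP list, Pcdh8 over 100% and 89.5%, and Pcdh19 over 100% and 59.2%. Pcdh1 and Pcdh12, which also lie on chromosome 18, and Pcdh15 had no region within 1 kb in either list. Of 18 classical cadherins, 13 had an AAV-Cre region within 1 kb of a start site and 9 an AAV-GFP region (72.2% and 50%, against 23.9% and 16.6% of all genes). Over the largest coding exon 3 had an AAV-Cre region and 1 an AAV-GFP region (16.7% and 5.56%), which is near the 12.0% and 6.53% of all genes. Cdh1, which encodes the epithelial E-cadherin, had a start site inside a region in both lists. Cdh2, which encodes N-cadherin, was 375146 bp from the nearest AAV-Cre region. Cdh5, Cdh7, Cdh9 and Cdh19 also had no AAV-Cre region within 1 kb of a start site.

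None of 12 genes for proteins that are known to act on the clusters had a region within 15 kb of a start site in either list. They were Ctcf, the cohesin genes Rad21, Smc1a, Smc3, Stag1 and Stag2, the cohesin loading and release factors Nipbl and Wapl, the methyltransferase gene Dnmt3b, and Setdb1, Trim28 and Smchd1. With the 15 kb window 41.6% of all genes had an AAV-Cre region and 28.0% an AAV-GFP region.

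Against other gene clusters the protocadherins lay between extremes. All 39 Hox genes, which are classical Polycomb targets, had a region within 1 kb of a start site in both lists. Of 53 keratin genes 22 did in the AAV-Cre list (41.5%) and 5 in the AAV-GFP list (9.43%). Of 294 olfactory receptor genes on chromosome 2, which are known for their role in the nose, 1 (0.34%) did in each list. The gamma cluster, with 17 of 21 members (81.0%) in the AAV-Cre list and 12 of 21 (57.1%) in the AAV-GFP list, was nearer to the Hox genes, and the beta cluster, with 1 of 22 in each list, nearer to the olfactory receptors.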

How the data were processed

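H3K27-me3 ChIP-seq of fasted liver was analysed from 2 deposited peak lists, 1 per virus group. The authors mapped reads to mm10 with bwa 0.7.13, filtered them with Samtools 1.2 and Picard 1.126, and called peaks with MACS in the AQUAS pipeline against a pooled input, from both replicates of a group. The deposited values are a fold enrichment over input (a ratio), a −log10 p-value and a −log10 q-value per peak, and the offset of the summit. They were computed by the authors, hold no counts and were not compared between lists. The display score was not used. MACS was run for narrow peaks, which splits broad domains. Depth is unknown, so no interval can be given.

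Regions are the deposited peaks. Coverage, overlap by at least 1 bp and distances were computed with Python 3.11.15, numpy 2.4.6 and pandas 2.3.3 on GENCODE M21 and GRCm38, the assembly that mm10 names. Words of 50 and of 100 bases were counted on both strands of the whole genome. A gene was called by its largest coding exon or by a window of 0, 1, 5 or 15 kb around the start sites of its basic protein-coding transcripts. Functions were tested on simulated data. With 1 list per group no test was made. Groups were taken from the sample titles, which read JMJD3-floxed and JMJD3-control. The first was read as the AAV-Cre group and the second as the AAV-GFP group, with virus, age and fasting as the study describes them.

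Members and gene lists were chosen with earlier results of these data known. The genes named are the 3 members of each cluster with the largest share of the variable exon covered in each list, the first and last member without an AAV-Cre region, the C-type members, the genes at the widest and strongest regions, neighbours within 100 kb and lists of at most 12 genes. Other members, cadherins, markers and antisense genes were named after their values were seen. Alternatives were q-value thresholds of 0.05 and 0.01, equal numbers of 34586 top peaks, merging within 1 kb, at least 0.5 of an exon or region, and other windows. The coding part of the exon and the genes with exons of at least 2000 bp were added after seeing the data. Sequences of the members are not reported here.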

Additional observations from a re-analysis of the deposited data

How the results depend on the processing

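Of 46 recomputed values over the clusters together, 32 moved by less than 1.5 times and 14 by more. Of 30 recomputed counts of members by exon per cluster, 11 moved by more. The AAV-Cre beta count fell from 6 to 2 both at a q-value of 0.01 and with equal numbers of top peaks, while the AAV-Cre gamma count was 12 to 17 throughout. The covered length was larger in the AAV-Cre list under all 4 alternatives, and the number of regions smaller under all 4. Members with a region within 1 kb of a start site were more in the AAV-Cre list under all 7 alternatives. Members with a region over the variable exon were more in the AAV-Cre list under 5 of 6, and the exception was equal numbers of 34586 top peaks, with 20 members in the AAV-Cre and 23 in the AAV-GFP list. With at least 0.5 of the exon covered the members were 13 in the AAV-Cre list and 8 in the AAV-GFP list. AAV-GFP members by exon fell from 23 to 15 at a q-value of 0.05 and to 14 at 0.01. The start site window gave 42 AAV-Cre members at 15 kb, and 7 and 41 AAV-GFP members at 0 and 15 kb. AAV-Cre regions went from 39 to 25 when merged within 1 kb, to 24 at a q-value of 0.01 and to 24 with equal numbers of top peaks. AAV-GFP regions went from 59 to 28 when merged, to 37 at a q-value of 0.05 and to 34 at 0.01. AAV-Cre regions that overlap an AAV-GFP region fell from 16 to 4 under an overlap of at least 0.5 of their length. These changes follow from the construction of the alternatives, which keep fewer or longer regions or ask for more overlap.

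Leaving out each replicate in turn was not run, because each list was made from both replicates and holds no value per library. No paired analysis was possible because the replicates were pooled in each list. Without replicates, the difference between the lists cannot be told apart from differences in depth, input or calling.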
